A study of Sus scrofa with 6 samples.

Results

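The comparison covered 2 induced pluripotent stem (iPS) cell lines of the pig whose labels list the surface antigen SSEA1, named PS24 and 30AC5, and PEF, a culture of pig embryo fibroblasts. These were 3 of the 6 arrays in the series and were chosen by the antigens their labels list. PS24 was labelled positive for SSEA1, SSEA3 and SSEA4, and 30AC5 for SSEA1. The other 3 arrays were PAFSC, amniotic fluid stem cells labelled as somatic like PEF, and the iPS lines iPF4-2 and iPSCs-w, both labelled with SSEA3 and SSEA4 but not SSEA1. All 6 were grown in DMEM with 15% fetal bovine serum for 72 h, and the iPS lines were kept on growth-arrested mouse embryonic fibroblast feeders. Each culture was 1 sample on 1 Affymetrix Pig Genome Array, and the labels used here do not name the donor animals, the cell of origin or the reprogramming vectors of the lines. What feeder RNA contributed to the iPS arrays was not tested.

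Fibroblasts are mesenchymal cells that secrete and remodel a collagen-rich matrix and pull on it with an actin cytoskeleton. Reprogramming is known to silence this mesenchymal programme, to bring in epithelial adhesion genes and, at a later stage, to switch on the cell's own pluripotency network around OCT4, SOX2 and NANOG. SSEA1 is a fucosylated glycan epitope used as a marker of mouse pluripotent cells, whereas SSEA3 and SSEA4 are globo-series glycolipids used as markers of human ones.

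The deposited values are log2 values around a zero that differs for each probe set. Values are therefore compared between arrays within a probe set, and never between genes. Array medians ran from -0.06 in PEF to 0.05 in PS24 among the 3 arrays compared. PS24 stood apart in RNA quality controls: the 5' minus 3' difference of its GAPDH, actin and EF1A control probe sets averaged -1.90, against 0.04 in PEF and 0.19 in 30AC5. PAFSC stood as far out in the other direction (1.90) and had a wider spread than any other array (SD 2.01 over the probe sets, against 0.61 to 0.81), so it is given beside the results and not used as a second control. A difference was called when both lines lay at least 1 log2 unit (2-fold) from PEF in the same direction. Both differences share the 1 PEF array, so their agreement does not speak for PEF itself. With 2 lines against 1 culture an exact permutation test cannot go below p = 0.33 on the absolute difference, or 0.67 with a doubled one-sided p. As a test with more power, limma was fitted to the 5 arrays other than PAFSC, with the lone PEF array assumed to vary as the lines of one label class do. The spread between fibroblast cultures was not measured, so its p-values describe this 1 PEF array against the lines and not fibroblasts in general.

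The labels were first held against marker genes. Fibroblast markers were high in PEF: of 7 measured, 6 lay lower in both SSEA1-labelled lines. The summed level of the 7 was 22.1 in PEF, -2.16 in PS24 and -0.74 in 30AC5. It was 25.1 in PAFSC, 1.13 in iPF4-2 and -8.68 in iPSCs-w. A high sum was thus not particular to PEF, nor a low one to PS24 and 30AC5. S100A4, a calcium-binding marker of fibroblasts, stood at -0.62 in PS24 and 0.00 in 30AC5, against 5.23 in PEF. PRRX1, a transcription factor of mesenchyme, stood at -0.89 in PS24 and -0.62 in 30AC5 against 3.02 in PEF. COL3A1, a fibrillar collagen, was the marker that did not follow, at 0.00 in PEF, 0.72 in PS24 and 0.01 in 30AC5. In such bulk samples fewer cells of a type and less RNA per cell cannot be told apart. Endothelial markers (0 of 5) and leukocyte markers (0 of 5) showed no called difference. For so few genes this is close to the shares called over all genes (4.63% higher and 6.1% lower).

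The few measured pluripotency markers did not separate the SSEA1-labelled lines from the fibroblasts. Of 8 listed 3 were measured, and none was called. For so few genes this is close to the shares over all genes (4.63% higher and 6.1% lower), so the values are given. POU5F1, which encodes OCT4, was -0.50 in PEF, 0.07 in PS24 and -0.07 in 30AC5, while iPF4-2 stood at 3.68 and iPSCs-w at 3.61. The difference from PEF of 0.50 had an SE of 0.30 (limma adjusted p = 0.616 over all probe sets). The difference between the line classes was -3.65 (SE 0.25, limma adjusted p = 0.0512), with both SSEA1-labelled lines below both others. DNMT3B, the de novo methyltransferase of early embryos, was -0.75 in PEF, 0.04 in PS24 and -0.12 in 30AC5, with higher values of 1.18 for iPF4-2 and 2.88 for iPSCs-w. ZFP42, also called REX1, lay below PEF (-0.12) in both lines, at -0.69 in PS24 and -0.62 in 30AC5. By their values, and not by the count of calls, these 3 transcripts went against the label of a pluripotent cell in PS24 and 30AC5. The same probe sets read higher in iPF4-2 and iPSCs-w.

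The wider pluripotency lists had low coverage of the network. Their calls are too few to set apart from the shares over all genes (4.63% higher and 6.1% lower). The core list had 2 measured members of 12 (POU5F1 and DNMT3B), with 0 called. Of 5 measured genes linked to naive pluripotency 1 was called, KLF4, and it lay lower. DPPA5, which binds RNA in pluripotent and germ cells, was -0.80 in PEF, -1.07 in PS24 and -1.04 in 30AC5. The other lines were higher, iPF4-2 at 2.31 and iPSCs-w at 1.64. NR0B1, the nuclear receptor DAX1, was -1.11 in PEF, 0.81 in PS24 and -0.13 in 30AC5, past the 1-unit mark in PS24 alone. KLF2, a factor of the naive state, differed by -0.12 in PS24 and -0.17 in 30AC5. ALPL, the tissue-nonspecific alkaline phosphatase whose activity is a common stain for pluripotent colonies, did lie higher: it was -2.46 in PEF, 0.81 in PS24 and 2.44 in 30AC5, and 2.42 and 3.06 in the other lines (limma adjusted p = 0.129). It was chosen after its values were seen.

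Of the transcription factors used to reprogram cells, 3 were measured, and 2 lay lower in the lines than in PEF, against 6.1% of all genes. MYC, the growth-promoting factor, was 5.55 in PEF, -0.75 in PS24 and 0.15 in 30AC5 (limma adjusted p = 0.0651). KLF4, a zinc finger factor also active in differentiated cells, was 2.12 in PEF, -2.91 in PS24 and -0.63 in 30AC5 (limma adjusted p = 0.202). PAFSC matched PEF for KLF4 (2.79) and the iPS lines for MYC (-0.14). POU5F1, the third, is described above. The probe sets read pig transcripts, and whether they also detect vector-borne copies was not tested.

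**Figure D1:**
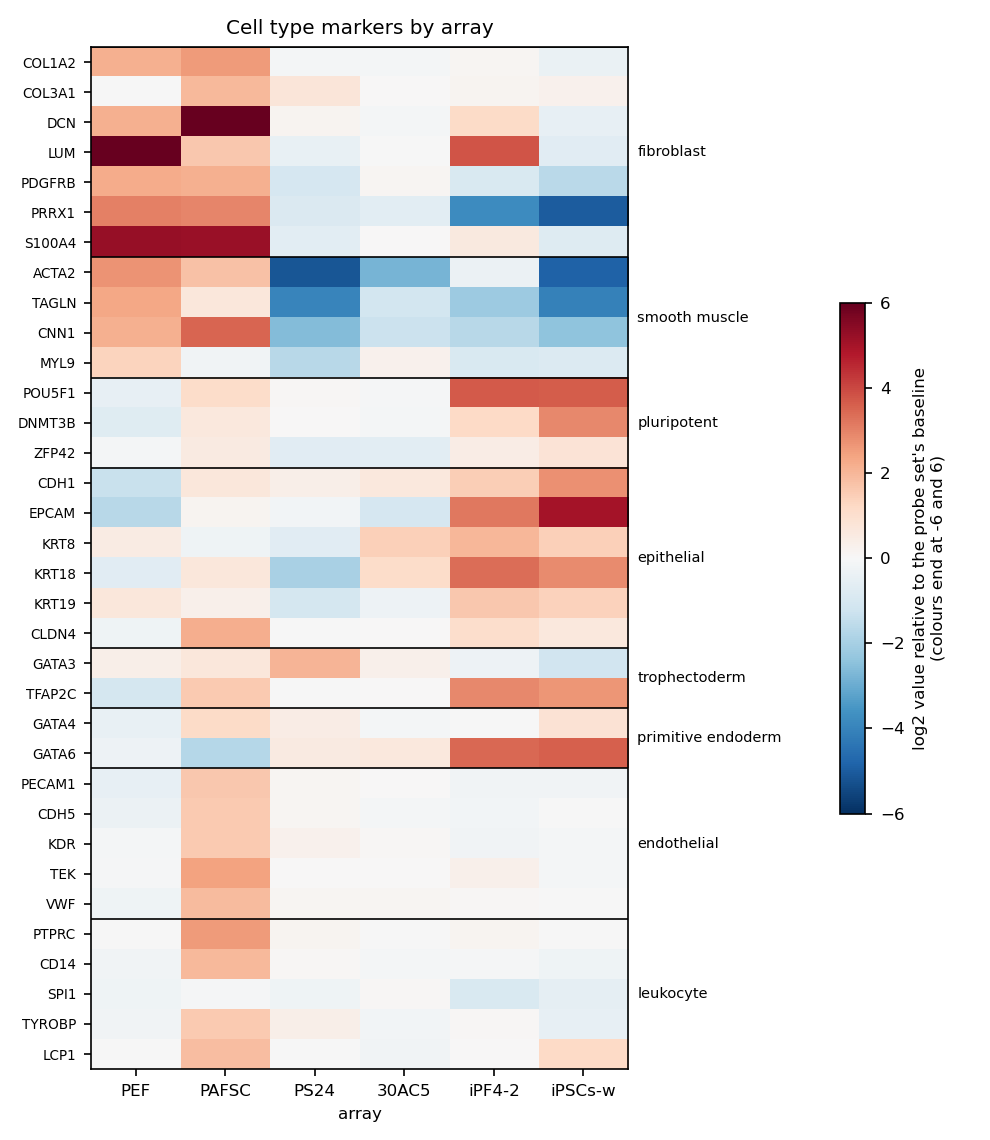
Cell type markers (rows, grouped by cell type) on the 6 arrays (columns), coloured by the log2 value relative to each probe set's own baseline; colours end at -6 and 6, and gene values are means over probe sets. Fibroblast and smooth muscle markers are high in PEF and near or below 0 in PS24 and 30AC5, while POU5F1 is highest in iPF4-2 (3.68) and iPSCs-w (3.61).

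Across the 23935 probe sets, 1017 (4.25%) were higher and 1423 (5.95%) lower in both lines. With values floored at each array's 25th percentile the split was 360 and 1212. The values have no common zero, so this floor is not one of expression. It shrinks mostly the differences where PEF lay far below zero, which are higher calls, so the shift says nothing about direction. Over the 6765 genes with a symbol, 313 (4.63%) were higher and 413 (6.1%) lower. At 2 log2 units (4-fold), 211 probe sets (0.882%) were higher and 547 (2.29%) lower. Among genes, 67 (0.99%) were higher and 150 (2.22%) lower, so on the deposited scale more of the larger differences were losses against the fibroblasts. At 1 log2 unit the split was closer after quantile normalization, at 939 higher and 1120 lower probe sets, and 290 and 319 genes. PS24 differed from PEF past the mark in 1252 genes and 30AC5 in 1196, and the shared genes were 58.0% of the first and 60.7% of the second. The median difference over all genes was 0.12, and 0.04 after median centring, so list medians are read against that.

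The limma fit called 91 probe sets (0.38%) at an adjusted p under 0.05, 15 higher (0.0627%) and 76 lower (0.318%). They held 33 genes with a symbol. All 91 were past the mark in both lines, which adds no support, because the fit called only large differences with the lines close together. An unadjusted p under 0.05 was reached by 2892 probe sets. The calls rested on having all the lines: limma called 0 with PS24, 30AC5, iPF4-2 or iPSCs-w left out (2581 to 2823 at an unadjusted p under 0.05), 0 after quantile normalization (2360) and 0 with PEF and PAFSC as 1 somatic class (1576). The spread in this fit rests on 2 residual degrees of freedom, from the 2 pairs of lines. Leaving out any line removes a degree of freedom, so the 0 calls then do not single out that line. Because the calls are this fragile, sizes and directions are given for each line as description. The verbs rose and fell mark probe sets that limma called against this PEF array.

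**Figure D2:**
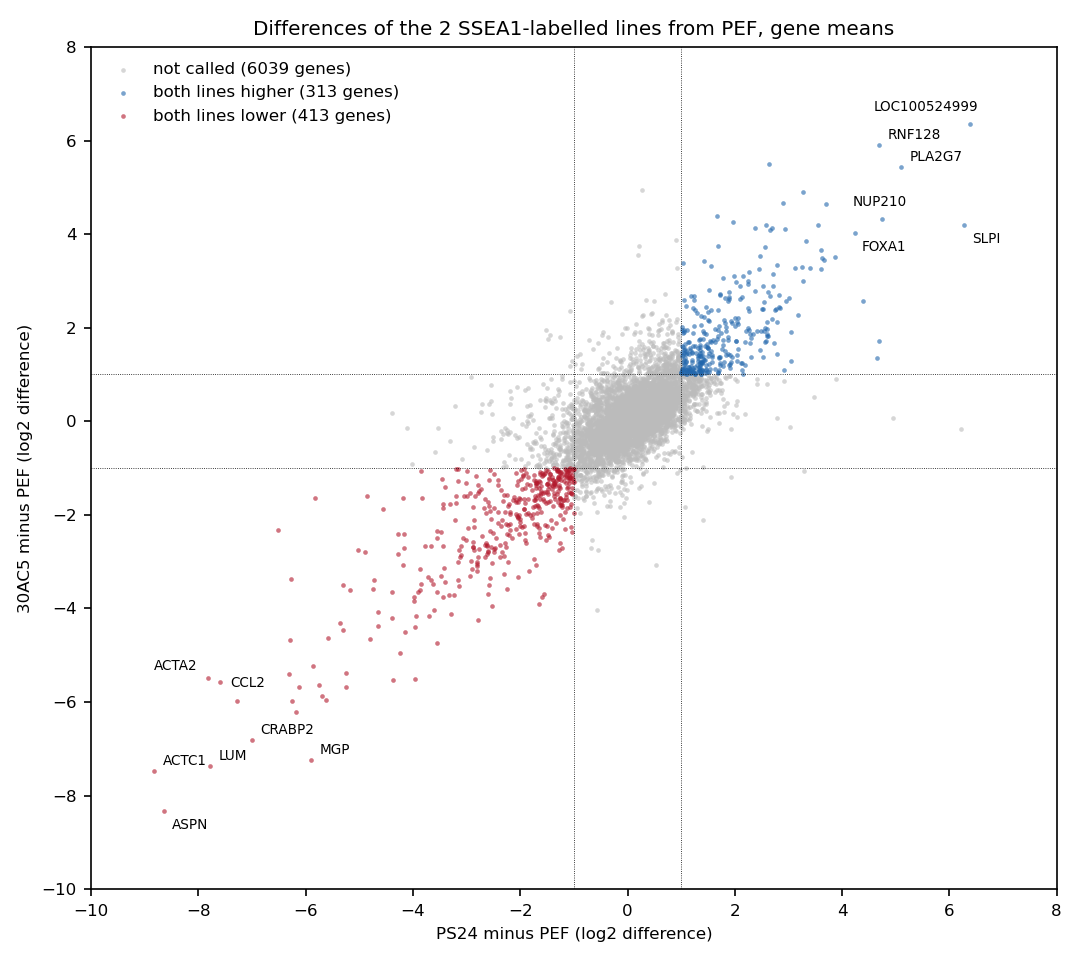
Difference from PEF in PS24 (x axis) and 30AC5 (y axis), in log2 units, for 6765 gene means; dotted lines mark 1 log2 unit. The 313 genes higher and 413 lower in both lines are coloured, and the lower arm reaches further, to -8.65 and -8.32 for ASPN, than the higher arm, to 6.38 and 6.36 for LOC100524999.

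The 12 genes furthest below the fibroblasts by the smaller of both differences included several that encode matrix proteins, beside an actin, a retinoic acid carrier and a transmembrane protein. ASPN, the small leucine-rich proteoglycan asporin, was 8.74 in PEF, 0.10 in PS24 and 0.42 in 30AC5, and fell by 8.48 in log2 units (SE 0.39, limma adjusted p = 0.0267). LUM, the related collagen-binding proteoglycan lumican, was 7.34 in PEF, -0.44 in PS24 and -0.02 in 30AC5. It kept 3.77 in iPF4-2, and its spread among the lines left it short of the threshold (limma adjusted p = 0.189). COL15A1, a basement membrane collagen, was 6.32 in PEF, -0.96 in PS24 and 0.34 in 30AC5 (limma adjusted p = 0.0567). COL6A3, a chain of the pericellular collagen VI, was 5.52 in PEF and -0.24 and -0.12 in the lines (limma adjusted p = 0.0583).

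MGP, matrix Gla protein, an inhibitor of calcification, differed from PEF (6.23) by -5.90 in PS24 and -7.24 in 30AC5. SERPINF1, the antiangiogenic factor PEDF, was 3.87 in PEF, -2.40 in PS24 and -2.11 in 30AC5. SPOCK3, a testican proteoglycan read by 2 probe sets, fell on both (limma adjusted p = 0.0319 and 0.0381), from a mean of 3.42 in PEF to -2.20 and -2.54. TMEM26, a transmembrane protein, fell likewise on its 2 probe sets, from 5.64 to -0.54 in PS24 and -0.57 in 30AC5 (limma adjusted p = 0.0292 and 0.0381). For all 12 genes chosen as furthest below PEF both other iPS lines also lay below PEF. Choosing genes by their distance from this PEF array favours such a count, so it is description only. PAFSC lay above both SSEA1-labelled lines for 11 of the 12, the exception being COL15A1, where PAFSC (-0.08) lay between them.

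CRABP2, which carries retinoic acid to its nuclear receptor, fell by 6.91 in log2 units (SE 0.57, limma adjusted p = 0.0381), from 2.91 in PEF to -4.09 in PS24 and -3.91 in 30AC5. ACTC1, the cardiac form of alpha-actin, was 4.41 in PEF, -4.42 in PS24 and -3.06 in 30AC5 (limma adjusted p = 0.0578).

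**Figure D3:**
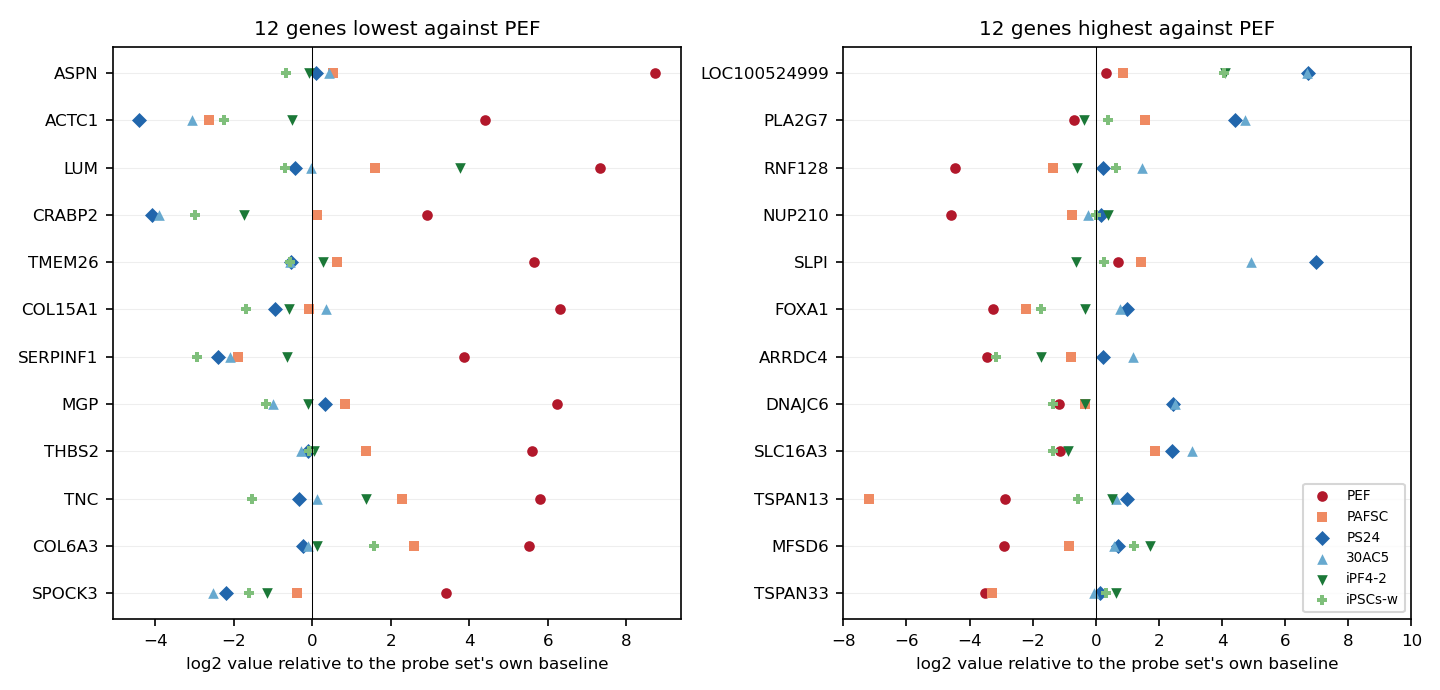
Values on all 6 arrays, in log2 units relative to each probe set's baseline, for the 12 genes furthest below (left) and the 12 furthest above (right) PEF by the smaller of the differences of the 2 lines; each symbol is 1 array. On the left PEF stands alone at the high end of every row, and on the right PS24 and 30AC5 both lie above PEF, at 4.40 and 4.73 for PLA2G7 against -0.70.

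The fibroblast identity list lay lower as a group. Of 20 measured genes 16 were called lower, 3 of them (DCN, PDGFRB and COL5A1) on probe sets that disagree in sign, and 0 higher, with a median difference of -2.64, against 6.1% called lower and a median of 0.12 over all genes. VCAM1, a cell adhesion molecule of the mesenchymal stem cell surface list, was 4.39 in PEF, 0.52 in PS24 and 1.22 in 30AC5. COL1A2, a chain of collagen I, was 2.12 in PEF and -0.11 in both lines. DCN, the proteoglycan decorin, was 2.14 in PEF, 0.18 in PS24 and -0.12 in 30AC5, and 8.81 in PAFSC. PDGFRB, the platelet-derived growth factor receptor, was 2.24 in PEF, -0.99 in PS24 and 0.13 in 30AC5 as the mean of 2 probe sets.

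The matricellular list, secreted proteins that modulate how cells attach to matrix, had the lowest median of all lists with 5 or more measured genes, at -4.02. Of its 9 measured genes 7 were called lower and 0 higher, against 6.1% lower and 4.63% higher over all genes. THBS2, a thrombospondin, fell by 5.78 in log2 units (SE 0.31, limma adjusted p = 0.0292), from 5.59 in PEF to -0.10 in PS24 and -0.28 in 30AC5. Its relative THBS1 fell on 2 of its 5 probe sets (limma adjusted p = 0.0381 for each). TNC, tenascin, was 5.80 in PEF, -0.33 in PS24 and 0.12 in 30AC5 (limma adjusted p = 0.15). POSTN, periostin, averaged 4.06 in PEF and 0.12 and -0.11 in the lines over 2 probe sets. On 1 of these it differed by only -0.97 in PS24 and -0.89 in 30AC5. SPP1, osteopontin, was 5.26 in PEF, 0.52 in PS24 and 1.67 in 30AC5. PAFSC stood lower than both lines for SPP1, at 0.18.

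Elastic fibre and cross-linking genes lay lower in 5 of 9, against 6.1% of all genes. Their median was -1.80, and all 9 were negative in both lines. LOXL1, an oxidase that cross-links elastin, fell from 3.03 in PEF to -1.76 in PS24 and -1.63 in 30AC5 (SE 0.47, limma adjusted p = 0.0464). MFAP2, a microfibril glycoprotein, fell from 2.02 to -1.15 and -1.38 (SE 0.32, limma adjusted p = 0.0438). FBN1, the microfibril backbone fibrillin, showed the lines apart, at 1.14 in PS24 and -1.01 in 30AC5 against 2.74 in PEF.

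Matrix proteases and their inhibitors lay lower in 8 of 16 and higher in 0, against 6.1% lower and 4.63% higher over all genes. Their median was -1.31. PLAU, the urokinase plasminogen activator, was 5.07 in PEF, -1.22 in PS24 and 0.39 in 30AC5 (limma adjusted p = 0.0869). SERPINE2, an inhibitor of such serine proteases, fell from 2.13 to -1.42 and -1.52 (SE 0.33, limma adjusted p = 0.0381). TIMP2, a metalloproteinase inhibitor, was 2.20 in PEF and -1.42 and -1.27 in the lines, and the collagenase MMP1 was 2.65 against 0.02 and 0.00. The called genes thus included both proteases and inhibitors. Of the 16 measured, 11 were negative in both lines, 2 positive in both and 3 on opposite sides.

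Among 8 measured integrins 4 lay lower and 1 higher, against 6.1% lower and 4.63% higher over all genes. ITGA8, a partner of the fibronectin-binding beta subunit found in mesenchyme, averaged 3.67 in PEF, -0.30 in PS24 and -0.73 in 30AC5 over 3 probe sets. Of those, 2 fell (limma adjusted p = 0.0377 and 0.0381). ITGB3, a vitronectin receptor chain, was 3.09 in PEF, 0.29 in PS24 and 0.04 in 30AC5. ITGA2, the collagen receptor chain of epithelia and platelets, was the 1 higher, at 0.27 in PEF, 1.63 in PS24 and 2.52 in 30AC5. On 1 of its 2 probe sets it differed by only 0.43 in PS24 and 0.50 in 30AC5.

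Contractile genes lay lower in 11 of 14, against 6.1% of all genes. Here the lines differed in size: the median was -3.15 in PS24 and -1.65 in 30AC5. ACTA2, smooth muscle actin, was 2.72 in PEF, -5.11 in PS24 and -2.77 in 30AC5. TAGLN, the actin-binding transgelin, was 2.30 in PEF, -3.97 in PS24 and -1.08 in 30AC5. CNN1, calponin, was 2.12 in PEF, -2.61 in PS24 and -1.27 in 30AC5, so for each the groups stood apart by more than the lines did. The limma adjusted p of these 3 was 0.292, 0.273 and 0.103. The lower of the lines, PS24, is also the array with the low 5' control signal; the part of RNA quality in this gap was not tested.

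PEF also stood high for several genes of striated muscle. Of 27 measured genes on a muscle list that was added after the values were seen, 14 lay lower in both lines and 0 higher. Among all genes 6.1% were called lower and 4.63% higher. PEF was the highest of the 5 arrays other than PAFSC for 16, a share not counted over all genes. A list added in this way favours such counts, so they are description only. MYL1, a fast skeletal myosin light chain, fell from 4.01 in PEF to -0.14 in PS24 and -0.50 in 30AC5 (SE 0.41, limma adjusted p = 0.0381). NEB, nebulin of the thin filament, fell from 3.40 to -0.58 and -0.43 (SE 0.31, limma adjusted p = 0.0381), and SGCD, a sarcoglycan of the muscle membrane, from 3.47 to 0.02 and -0.28 (SE 0.33, limma adjusted p = 0.0381). KLHL41, a sarcomere-associated kelch protein, and 1 of the 2 probe sets of TTN, titin, fell as well (limma adjusted p = 0.0464 for each).

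The myogenic factor MYF5 was 2.50 in PEF, 0.01 in PS24 and -0.24 in 30AC5 (limma adjusted p = 0.0665). MYOD1, the myoblast determination factor, was 0.97, -0.14 and -0.11. The summed level of the 27 genes was 34.3 in PEF, -9.08 in PS24 and -6.93 in 30AC5. TNNT3 and CKM, a troponin and a creatine kinase of mature fibres, differed little: TNNT3 by 0.05 in PS24 and -0.10 in 30AC5, and CKM by -0.05 and 0.19. The summed level in PAFSC was 32.2, on an array whose median was also raised (0.69).

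Further genes that fell were named from the limma calls after their values were seen. SCG2, secretogranin, fell from 5.27 in PEF to 0.01 in PS24 and -0.11 in 30AC5 (SE 0.34, limma adjusted p = 0.0319), and DPT, the matrix protein dermatopontin, from 4.61 to -0.05 and 0.24 (SE 0.32, limma adjusted p = 0.0381). THY1, a surface glycoprotein of fibroblasts and mesenchymal stem cells, averaged 3.73 in PEF, 0.00 in PS24 and 0.39 in 30AC5, and 1 of its 3 probe sets fell (limma adjusted p = 0.0381). HEY2, a transcriptional repressor downstream of Notch, fell on 1 of 3 probe sets (limma adjusted p = 0.0381), and the 3, which disagree in sign, averaged 0.65 in PEF, -1.07 in PS24 and -1.03 in 30AC5. AGTR1, the angiotensin receptor, fell from 3.52 to 0.35 and 0.50 (SE 0.31, limma adjusted p = 0.0464).

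In the other direction the furthest gene was LOC100524999, a protein-coding locus without a symbol that neighbours PLAC8 in the RefSeq annotation. It was 0.34 in PEF, 6.71 in PS24 and 6.70 in 30AC5, and rose by 6.37 (SE 0.30, limma adjusted p = 0.0267). The other iPS lines lay between, at 4.10 in iPF4-2 and 4.07 in iPSCs-w, and PAFSC was at 0.87. PLA2G7, the secreted phospholipase that degrades platelet-activating factor, rose from -0.70 in PEF to 4.40 in PS24 and 4.73 in 30AC5 (SE 0.44, limma adjusted p = 0.0381). It was not high in the other lines, at -0.38 and 0.38.

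NUP210, a membrane protein of the nuclear pore, rose from -4.59 in PEF to 0.16 in PS24 and -0.26 in 30AC5 (SE 0.37, limma adjusted p = 0.0381). TSPAN33, a tetraspanin, rose from -3.51 to 0.15 and -0.07 (SE 0.33, limma adjusted p = 0.0386), and MFSD6, a member of a transporter superfamily, from -2.92 to 0.71 and 0.57 (SE 0.36, limma adjusted p = 0.0499). For these 3 genes both other iPS lines also lay above PEF, as for MFSD6 at 1.73 in iPF4-2 and 1.21 in iPSCs-w, so PEF was the low array of the 5 in the fit. RNF128, a ubiquitin ligase also called GRAIL, was -4.45 in PEF, 0.24 in PS24 and 1.45 in 30AC5, and neither of its 2 probe sets passed (limma adjusted p = 0.054 and 0.131).

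SLPI, an antiprotease of mucosal secretions, had the widest gap between the lines among these 12 genes, at 6.99 in PS24 and 4.92 in 30AC5 against 0.71 in PEF (limma adjusted p = 0.121). FOXA1, a pioneer factor of endoderm and epithelia, was -3.26 in PEF, 0.98 in PS24 and 0.77 in 30AC5 (limma adjusted p = 0.0869). SLC16A3, the lactate exporter MCT4, was -1.15 in PEF, 2.40 in PS24 and 3.06 in 30AC5, and DNAJC6, the clathrin-uncoating cofactor auxilin, was -1.16 against 2.45 and 2.51. For SLC16A3 and DNAJC6 iPF4-2 and iPSCs-w stayed within 1 log2 unit of PEF. Both SSEA1-labelled lines lay above PAFSC for all 12 genes, and both other iPS lines lay above PEF for 9 of them. The choice of genes far above PEF favours these counts too.

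Epithelial adhesion genes and keratins divided. Of 19 measured 4 lay higher and 1 lower, with a median of 0.27, against 4.63% higher and 6.1% lower over all genes. CDH1, the epithelial cadherin, was -1.34 in PEF, 0.35 in PS24 and 0.61 in 30AC5. CLDN7, a claudin of tight junctions, was -2.60 in PEF, 0.11 in PS24 and 0.55 in 30AC5, and OCLN, occludin, was -1.28 against 0.71 and 1.82. MAL2, a protein of apical vesicle transport, was -0.47 in PEF, 2.93 in PS24 and 2.82 in 30AC5. On 1 of its 2 probe sets MAL2 differed by only 0.33 in PS24 and 0.56 in 30AC5. None of these passed in limma (lowest adjusted p = 0.0756, for 1 probe set of MAL2).

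The keratins were not called: KRT8 differed by -1.21 in PS24 and 0.91 in 30AC5 over 2 probe sets that disagree in sign, and KRT19 by -1.70 and -0.96. KRT18, the simple-epithelial type I keratin, was -0.68 in PEF, -1.93 in PS24 and 1.12 in 30AC5, so the lines lay on opposite sides. EPCAM, an adhesion molecule of epithelia and pluripotent cells, was -1.67 in PEF, -0.16 in PS24 and -1.03 in 30AC5, whereas iPF4-2 stood at 3.18 and iPSCs-w at 4.98. CLDN6, a claudin of early embryonic epithelia, lay lower, at 0.35 in PEF, -2.70 in PS24 and -1.24 in 30AC5, and reversed with PAFSC (-2.57) in place of PEF. With PAFSC as the reference the median of the list was -0.76.

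The HOX genes, which set position along the body axis, had the highest median, 1.67, although only 5 of 34 were measured. HOXA9 was -0.29 in PEF, 2.99 in PS24 and 2.71 in 30AC5. HOXD8 was -1.22 against 1.23 and 2.04, and HOXD10 was -0.67 against 1.38 and 0.63. HOXA3 was 1.37 in PEF, -0.26 in PS24 and 1.82 in 30AC5 and was not called. In the other lines HOXA9 went the other way from PEF, to -4.49 in iPF4-2 and -2.02 in iPSCs-w. The limma adjusted p for HOXA9 was 0.33 against PEF.

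Signalling lists had few calls and members on both sides, so the values below describe single genes and not the pathways. Over all genes 4.63% were called higher and 6.1% lower. In the Wnt list 4 of 13 lay higher and 3 lower. Among receptors FZD6 was -0.60 in PEF, 1.82 in PS24 and 1.33 in 30AC5, and FZD5 was -4.06, -2.10 and 0.20. The secreted inhibitors split: SFRP1 was -0.92 in PEF, 1.83 in PS24 and 1.47 in 30AC5, and lower in iPF4-2 (-1.91) and iPSCs-w (-1.89). DKK2 averaged 3.11 in PEF, -0.50 in PS24 and -0.93 in 30AC5, and 1 of its 2 probe sets fell (limma adjusted p = 0.0381).

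In the FGF and ERK list 2 of 9 lay higher and 1 lower. FGF2, a growth factor used to maintain stem cells, was 0.17 in PEF, 1.96 in PS24 and 3.24 in 30AC5, with 0.28 and 0.37 in the other lines. ETV5, a transcriptional target of that pathway, was 0.17 in PEF, 2.05 in PS24 and 2.79 in 30AC5. EGR1, an immediate early target, was 2.55 in PEF, 0.52 in PS24 and 0.14 in 30AC5. DUSP6, a phosphatase induced by ERK, differed by -0.95 in PS24 and -0.42 in 30AC5, so the targets did not go one way.

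In the TGF-beta and BMP list 1 of 20 lay higher and 3 lower, too few to set apart from the shares over all genes (4.63% and 6.1%). The ligands TGFB2 (2.34 in PEF, 0.01 in PS24, -0.46 in 30AC5) and TGFB3 (1.48, 0.18, -0.25) were lower. On 1 of its 2 probe sets TGFB3 differed little, by -0.08 in PS24 and -0.39 in 30AC5. ID3, a BMP target, was 1.65 in PEF, 0.41 in PS24 and -0.10 in 30AC5. FST, which binds and blocks activin, was -0.63 in PEF, 1.52 in PS24 and 2.47 in 30AC5. LIF, the cytokine that maintains mouse pluripotent cells, was 0.85 in PEF, -0.87 in PS24 and -0.79 in 30AC5 and the 1 of 8 LIF and STAT genes called. Of 8 insulin-like growth factor genes 2 lay lower, both binding proteins: IGFBP5 was 2.59 in PEF and -0.56 and -0.93 in the lines, and IGFBP6 was 2.48 against 0.78 and 0.28.

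Inflammatory genes lay lower in larger numbers. Of 17 NF-kappaB and chemokine genes 8 were lower and 1 higher, against 6.1% lower and 4.63% higher over all genes. The median was -1.10, and SLPI was the higher one. CCL2, a monocyte chemokine, was 6.56 in PEF, -1.04 in PS24 and 0.97 in 30AC5. PTGS2, the inducible cyclooxygenase, was 3.72 in PEF, -1.53 in PS24 and -1.96 in 30AC5. CXCL8, the neutrophil chemokine interleukin-8, was 6.59 in PEF, 0.07 in PS24 and 4.27 in 30AC5, so 30AC5 lay nearer to PEF than to PS24. With PAFSC (0.86) as the reference its mean difference reversed, to 1.31.

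Of 18 interferon response genes 5 lay lower and 1 higher, with a median of -0.81, against 6.1% lower and 4.63% higher over all genes. IFIT3, an interferon-induced RNA sensor partner, was 2.64 in PEF, 0.26 in PS24 and -0.26 in 30AC5, but 4.26 in iPSCs-w. IRF1, a transcription factor of that response, was 2.14 in PEF, 1.00 in PS24 and 0.51 in 30AC5. In the MHC class I list 1 of 13 was called: PSMB8, an immunoproteasome subunit, at -0.51 in PEF, 1.04 in PS24 and 0.99 in 30AC5. TAPBP, tapasin, differed by -0.75 and -0.99 and SLA-3, a class I heavy chain, by 1.01 in PS24 and 0.54 in 30AC5.

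Oxidative phosphorylation and cell cycle genes showed small positive medians with few calls, where 4.63% of all genes were called higher and 6.1% lower. The median of 27 oxidative phosphorylation genes was 0.37; 23 were positive in both lines and 0 called. The median of 21 cell cycle genes was 0.50; 15 were positive in both lines, 1 was called higher and 1 lower. ORC1, the largest subunit of the origin recognition complex, was -1.41 in PEF, 0.01 in PS24 and -0.01 in 30AC5. CDC25B, a mitotic phosphatase, was 1.67 in PEF, 0.35 in PS24 and 0.11 in 30AC5. Of 15 cell cycle inhibitors and p53 targets 3 lay lower, among them CDKN1A, the inhibitor p21, at 2.04 in PEF, 0.96 in PS24 and 0.21 in 30AC5. GADD45B, a stress response protein, was 2.29 in PEF against -0.20 and -0.52.

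Metabolic lists had few calls, too few to set apart from the shares over all genes (4.63% higher and 6.1% lower). Glycolysis genes had 2 of 16 called, both higher. PFKP, the platelet isoform of phosphofructokinase, was -0.77 in PEF, 1.82 in PS24 and 1.09 in 30AC5. SLC2A3, the glucose transporter GLUT3, was -0.59, 0.59 and 2.09. The 1 nucleotide synthesis gene called was PPAT, which starts purine synthesis, at -2.45 in PEF, 0.27 in PS24 and 0.45 in 30AC5 (limma adjusted p = 0.0578). Cholesterol and fatty acid synthesis genes had a median of -0.86, with 2 of 12 lower: SQLE, squalene epoxidase, was 0.19 in PEF, -1.17 in PS24 and -1.15 in 30AC5, and SC5D, a sterol desaturase, was 0.27, -0.85 and -1.58. Among DNA and histone methylation genes JARID2, a partner of the Polycomb repressive complex, was -1.03 in PEF, 1.67 in PS24 and 1.17 in 30AC5. DNMT3A, a de novo methyltransferase, was 0.99 in PEF against -0.13 and -0.43.

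Of 17 imprinted genes 2 lay lower and 0 higher, close to the shares over all genes (6.1% and 4.63%). NNAT, neuronatin, was 3.19 in PEF, -1.46 in PS24 and -0.88 in 30AC5 (limma adjusted p = 0.0766). PHLDA2, a regulator of placental growth, was 3.20 in PEF, -0.45 in PS24 and 0.54 in 30AC5. ERG, an ETS factor of endothelium, was the 1 of 14 endothelial genes called, at 3.62 in PEF, 0.38 in PS24 and -0.09 in 30AC5 (limma adjusted p = 0.0535). TFAP2C, a factor of trophectoderm and germ cells, was the 1 of 7 trophectoderm genes called higher, at -1.06 in PEF, -0.04 in PS24 and 0.04 in 30AC5, far below iPF4-2 (2.89) and iPSCs-w (2.65).

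Several lists had no called member: ribosomal proteins (0 of 37, median 0.08), proteasome subunits (0 of 27, median 0.16) and leukocyte markers (0 of 14, median 0.25). Over all genes 4.63% were called higher and 6.1% lower, so 0 calls in a small list says little about it. The 8 measured enzymes that build or modify SSEA glycans had 0 called as well, with a median of 0.62. B4GALT1, a galactosyltransferase, had the highest mean difference (0.90), at 0.28 in PEF, 1.47 in PS24 and 0.89 in 30AC5. B3GNT5, which extends lacto-series glycolipids, differed by -0.86 in PS24 and -1.38 in 30AC5. The fucosyltransferases FUT4 and FUT9, which can complete the SSEA1 epitope, were not analysed here.

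**Figure D4:**
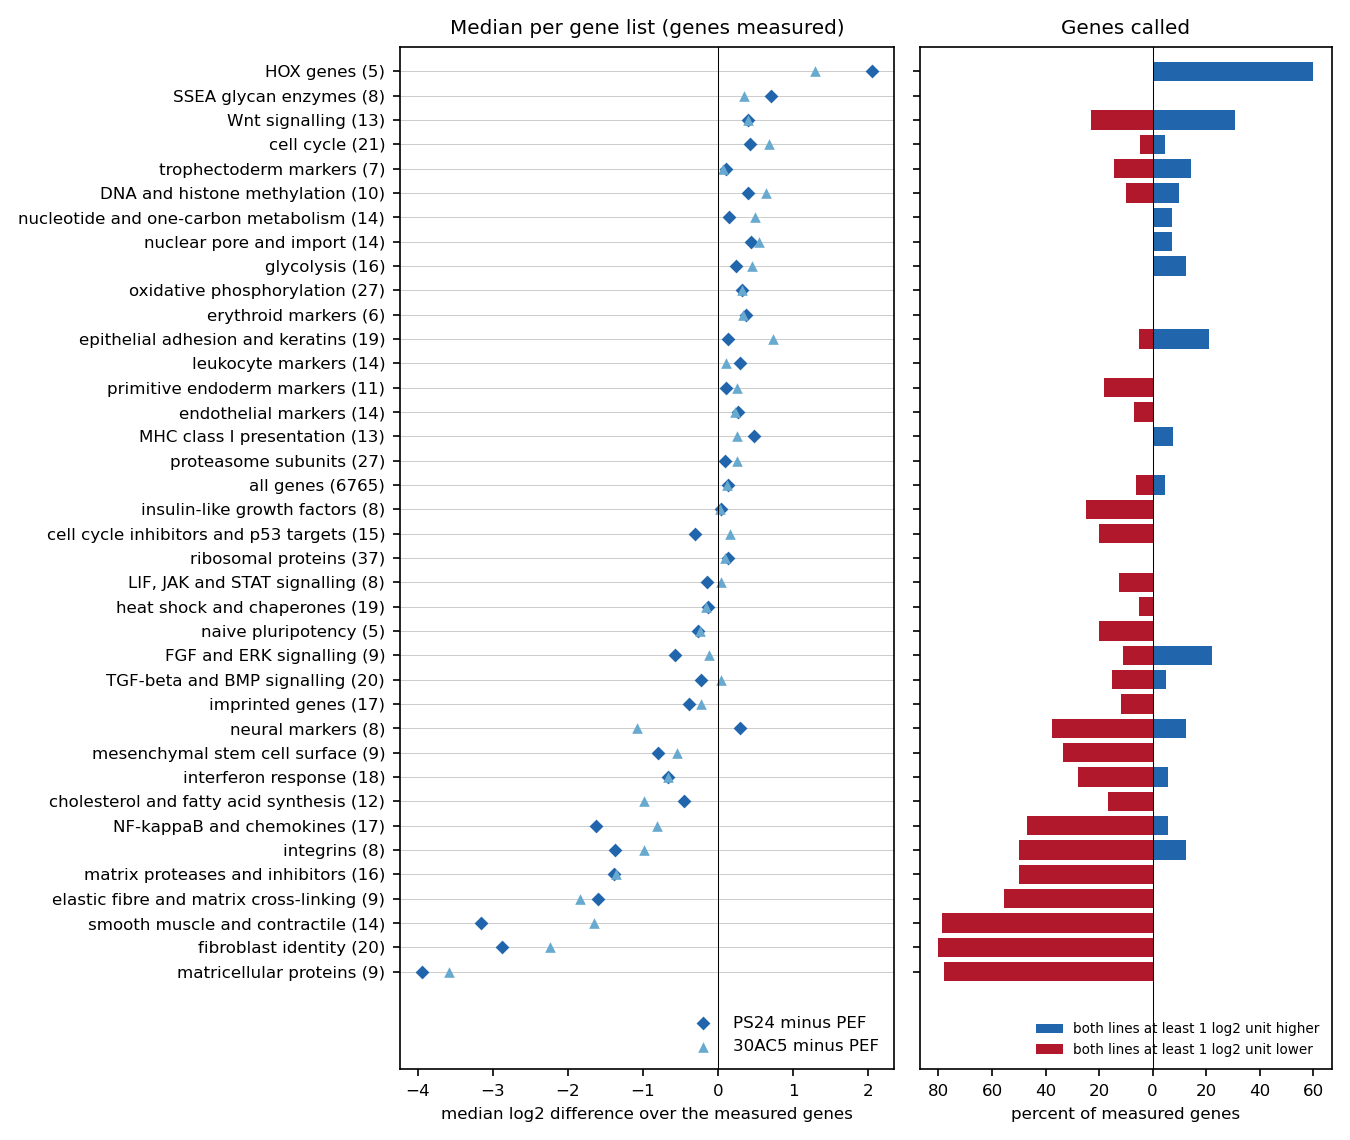
Left, median log2 difference from PEF per gene list with 5 or more measured genes, for PS24 (diamonds) and 30AC5 (triangles), with the number measured in parentheses. Right, percent of those genes at least 1 log2 unit higher (blue) or lower (red) than PEF in both lines; over all 6765 genes it was 4.63% higher and 6.1% lower, while matricellular, fibroblast and contractile genes lie far to the lower side, and the highest median, of HOX genes, rests on 5 genes.

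The lines were not alike. They differed from each other by at least 1 log2 unit in 649 genes (9.59%), with an SD of 0.65 over the gene differences. Opposite differences from PEF past the mark were found for 12 genes. CCNA2, cyclin A of S phase, was -1.54 in PEF, -3.02 in PS24 and 0.23 in 30AC5. MT1A, a metallothionein, was -0.02 in PEF, -1.54 in PS24 and 1.94 in 30AC5, and PALMD, palmdelphin, was -0.69, -2.14 and 1.16. CXCL14, an epithelial chemokine, went the other way, at -0.01 in PEF, 1.39 in PS24 and -2.13 in 30AC5. With 1 array per line and the low 5' signal in PS24, a difference between the lines and one between the arrays cannot be told apart.

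Genes far apart between the lines, chosen after their values were seen, included several that 30AC5 shared with the fibroblasts. F3, tissue factor that starts coagulation, was 4.40 in PEF, 0.00 in PS24 and 4.58 in 30AC5. AREG, an EGF receptor ligand, was 2.71 in PEF, -0.51 in PS24 and 3.03 in 30AC5, and GADD45A, a stress response protein, was 2.31, -1.79 and 2.17. In PS24 alone SELP, P-selectin, was high, at 5.07 against 0.12 in PEF and 0.19 in 30AC5. ASCL2, an imprinted factor of trophoblast and intestinal stem cells, was 3.65 in PS24, 0.67 in 30AC5 and -0.23 in PEF, and GATA2, a factor of trophoblast and blood, was 2.68, -0.03 and -0.10.

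EIF1AY, a translation factor gene on the Y chromosome in the RefSeq annotation, set PS24 and 30AC5 further apart than any other gene. It was -0.06 in PS24 and 0.22 in iPF4-2, and -6.42 in 30AC5, -6.42 in iPSCs-w and -6.27 in PEF, with PAFSC at -3.11. PS24 therefore did not match PEF for this gene, whereas 30AC5 did. Whether the animals of origin differed in sex was not tested, and differences of PS24 from PEF or 30AC5 cannot be told apart from differences of origin.

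Set directly against the SSEA3/SSEA4-only lines in the same limma fit, PS24 and 30AC5 differed in 4 probe sets (0.0167%) at an adjusted p under 0.05, 3 higher (0.0125%) and 1 lower (0.00418%), with 2655 at an unadjusted p under 0.05. AIF1, a calcium-binding protein of macrophages, was the 1 with a symbol: it was -1.63 in PS24 and -1.86 in 30AC5, whereas iPF4-2 stood at 3.87 and iPSCs-w at 3.74 (difference -5.55, SE 0.26, limma adjusted p = 0.0482), and -1.65 in PEF. With any 1 line left out limma called 0 in this contrast (1909 to 2650 at an unadjusted p under 0.05). For AIF1 and POU5F1 the SSEA1-labelled lines thus lay within 1 log2 unit of PEF and far from the other lines, whereas for the matrix genes ASPN, THBS2 and LOXL1 all 4 lines lay below PEF. These matrix genes were picked for large differences from PEF, and AIF1 for its class difference, so the contrast is description only.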

How the data were processed

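Biotin-labelled cRNA of 6 pig cultures was read on Affymetrix Pig Genome Arrays, per the labels' protocols. The authors deposited 1 value table of 24123 probe sets with 0 missing values. The deposited values, 1 per probe set and array, are taken as log2 from their range around 0; the baseline, normalization and scaling that the authors used to make them are not stated in the labels. The 124 control and 64 reporter probe sets were left out, which left 23935, of which 10069 have 1 gene symbol in the platform annotation, 198 several and 13668 none. A gene's value is the mean of its probe sets (6765 genes). The members and all gene lists were chosen with earlier results of these data known. Named genes were the 12 with the largest shared difference per direction (by the smaller of both differences), 4 per list, all measured pluripotency and reprogramming factors, and 4 with opposite lines; others are marked as chosen later. Differences against PEF used Python 3.11.15 (pandas 2.3.3), and the test R 4.3.3 with limma 3.58.1 (lmFit, eBayes, 3 classes on 5 arrays, two-sided, p adjusted by Benjamini-Hochberg across the 23935, threshold 0.05). P-values measure the spread between samples that are not stated to be repeat cultures, and the number of arrays limits the precision. Tested on simulated data, with 50 probe sets shifted per size, limma called 0% of changes of 1 log2 unit, 14% at 2, 94% at 4 and 96% at 6, with 6 false calls. Alternatives were median centring, quantile normalization, a floor, removal of the lowest 40% by mean, other cuts, limma with a trend, robust or treat, 1 probe set per gene, each line left out, and PAFSC beside or in place of PEF.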

Additional observations from a re-analysis of the deposited data

Results flagged for a closer look

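AIF1 differed between the line classes in the tested contrast, by -5.55 (SE 0.26, limma adjusted p = 0.0482): against PEF (-1.65) PS24 (-1.63) and 30AC5 (-1.86) differed little, whereas iPF4-2 (3.87) and iPSCs-w (3.74) lay higher. HOXA9 lay above PEF (-0.29) in both SSEA1-labelled lines (2.99 and 2.71) and below it in both others (-4.49 and -2.02). The class difference was 6.10, and it did not pass in limma (adjusted p = 0.111).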

How the results depend on the processing

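No paired analysis was possible, because there was 1 PEF array and the labels pair no line with a fibroblast culture. Of 97 named genes past the mark 97 kept their sign under quantile normalization and 96 with the probe set of highest mean, where PDGFRB reversed (0.49); their sign in each line alone is fixed by the rule, and median centring shifts all genes alike by too little to turn one. With PAFSC in place of PEF 82 kept it. The 15 that reversed were SPP1 (0.91), ITGB5 (0.91), CLDN6 (0.60), DKK2 (1.47), CDC25B (1.80), CDKN1A (2.02), SC5D (3.01), SQLE (1.63), PSMB8 (-1.60), IRF1 (1.80), CXCL8 (1.31), PHLDA2 (0.0022), TFAP2C (-1.57), COL4A2 (0.30) and LAMB1 (0.065); the cause was not tested.

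Probe sets higher were 211 at 2 log2 units, 613 with the lowest 40% by mean left out, 360 with a floor, 570 against both PEF and PAFSC and 2030 to 2038 with 1 line left out; probe sets lower were 547, 868 with the filter, 1212 with the floor, 612 against both and 2148 to 2382. Quantile normalization brought the split nearer to even, at 939 higher and 1120 lower. The floor moved it from 1017 higher and 1423 lower to 360 and 1212. The matching gene counts, added after seeing the data, were 67, 193, 108, 176 and 573 to 628 higher, and 150, 264, 355, 197 and 568 to 679 lower. A stricter cut, fewer probe sets or a second control lowers these counts by construction. The floor does so too, mostly for calls where PEF lay low. Neither the floor nor the filter by mean selects on expression, because the zero differs for each probe set.

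Against PEF limma called 91 probe sets, 94 with median centring, 122 with the filter, 8 with treat, 0 after quantile normalization (2360 at an unadjusted p under 0.05), 0 with PEF and PAFSC as 1 class (1576) and 0 with any 1 line left out (2581 to 2823). Against the SSEA3/SSEA4-only lines it called 4, 2 with median centring, 46 with the filter, 0 after quantile normalization (2661 at an unadjusted p under 0.05), with a trend (2738) or with treat (593), and 0 with any 1 line left out (1909 to 2650). Leaving out a line also lowers the residual degrees of freedom, so the 0 calls there do not single out a line. The cause of the other changes was not tested.

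The fibroblast median was -1.92 after quantile normalization, -3.25 with the probe set of highest mean, -2.16 against PAFSC and -2.88 to -2.24 with 1 line left out. The matricellular median was -3.09, -4.58, -1.45 and -3.94 to -3.59 in the same order. The epithelial median was -0.76 against PAFSC and 0.13 to 0.72 with 1 line left out. The 1 PEF array, 2 residual degrees of freedom, the 5' signal of PS24 and the unstated normalization limit what can be read.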
